A study of Mus musculus with 10 samples.

Results

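The collagen genes encode the chains of the most abundant proteins of the extracellular matrix. They were taken as all protein-coding genes on mouse chromosomes 1 to 19 (build mm10) whose symbol is Col, a number, a, and a number, which gave 42 of 20665 genes. The mark measured was H3K27me3, the trimethylated histone residue that Polycomb complexes write, in macrophages grown from C57BL/6 bone marrow for 7 days with 20 ng/ml M-CSF. Cells were left unstimulated (M0), or received LPS at 20 ng/ml together with interferon-gamma at 50 ng/ml (M1) or IL-4 at 20 ng/ml (M2) over 24 h. Cells called WT carried Eif2ak3 fl/fl, a floxed allele of the gene for the stress kinase PERK, and cells called KO were Eif2ak3 fl/fl x LysMcre, so both genotypes carry the floxed allele. Cre from the lysozyme M gene acts in myeloid cells, and the labels describe cultures of whole marrow with no sort. Each genotype gave 1 M0 library, 2 M1 libraries and 2 M2 libraries, 10 in all, and the series' design text calls the M1 and M2 pairs biological replicates.

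Collagen chains wind around each other as a triple helix. Fibrillar collagens give tendon, bone and skin their strength, type IV collagens form the sheet of basement membranes, and other classes decorate fibrils, form beaded filaments or sit in cell membranes. Fibroblasts, chondrocytes and other mesenchymal cells are the main makers of fibrillar collagen, while macrophages are better known for degrading and taking up matrix. Polycomb repressive complex 2 deposits H3K27me3 on genes that a cell lineage keeps silent, often across CpG-rich start sites and sometimes across whole genes. Cover by the mark is not a measure of transcripts, and none were measured in these libraries.

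The value used throughout is cover: the percent of a gene's body, with 5 kb added on either side, that lies under the H3K27me3 regions the authors called in a library. A gene is called covered at 50% or more. By that measure 10 of the 42 genes were covered in all 10 libraries, 9 in some, 17 had cover but under 50% in every library, and 6 had no region in any library. The collagen genes covered in all 10 libraries were 23.8% of the family and those with no region 14.3%, where the genome as a whole had 7.92% and 44.0%. Collagen genes are long, with a median span of 120 kb, so the same shares were read among genes of like span. Of the 4947 genes between the lower and upper quartile of collagen spans, 5.48% were covered in all 10 and 38.9% had no region. Among the 2035 genes at least as long as the median collagen span these shares were 2.41% and 22.9%.

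Upstream sequences of 6 genes are printed because their start sites stand for the patterns described next. Each is the 250 bases before the annotated start, 5′ to 3′ in the gene's direction, from RefSeq on GRCm38.p6, the same build as mm10. CG dinucleotides, which read the same on both strands, are in capitals. Col5a1 (chr2:27886175-27886424, plus strand) and Col8a2 (chr4:126286544-126286793, plus strand) lay inside broad regions in every library. Col1a2 (chr6:4505368-4505617, plus strand) had a short region at its start and little cover in its body, and Col3a1 (chr1:45311288-45311537, plus strand) had none. Col5a3 (chr9:20815068-20815317, minus strand) and Col25a1 (chr3:130180595-130180844, plus strand) had M1 and M2 libraries that did not overlap.
Col5a1: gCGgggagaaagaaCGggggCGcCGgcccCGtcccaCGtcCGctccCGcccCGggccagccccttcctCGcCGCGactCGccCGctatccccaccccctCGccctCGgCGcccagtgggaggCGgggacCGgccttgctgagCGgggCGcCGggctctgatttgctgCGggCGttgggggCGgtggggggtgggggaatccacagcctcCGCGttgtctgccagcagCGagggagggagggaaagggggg
Col8a2: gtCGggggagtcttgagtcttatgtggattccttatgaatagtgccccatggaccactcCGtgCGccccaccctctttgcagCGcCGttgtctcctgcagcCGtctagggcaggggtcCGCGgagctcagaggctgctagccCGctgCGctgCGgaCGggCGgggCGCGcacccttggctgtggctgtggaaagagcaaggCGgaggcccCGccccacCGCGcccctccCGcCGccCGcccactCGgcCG
Col1a2: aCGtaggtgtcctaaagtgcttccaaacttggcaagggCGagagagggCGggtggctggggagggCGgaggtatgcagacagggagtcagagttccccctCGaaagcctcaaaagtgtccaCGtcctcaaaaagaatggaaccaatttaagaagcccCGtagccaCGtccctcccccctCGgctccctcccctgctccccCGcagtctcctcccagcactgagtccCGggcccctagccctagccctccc
Col3a1: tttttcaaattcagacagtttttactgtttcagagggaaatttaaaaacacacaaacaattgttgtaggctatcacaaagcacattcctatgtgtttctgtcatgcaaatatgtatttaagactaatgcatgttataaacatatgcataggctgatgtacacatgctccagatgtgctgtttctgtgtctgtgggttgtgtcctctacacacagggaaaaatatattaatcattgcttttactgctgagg
Col5a3: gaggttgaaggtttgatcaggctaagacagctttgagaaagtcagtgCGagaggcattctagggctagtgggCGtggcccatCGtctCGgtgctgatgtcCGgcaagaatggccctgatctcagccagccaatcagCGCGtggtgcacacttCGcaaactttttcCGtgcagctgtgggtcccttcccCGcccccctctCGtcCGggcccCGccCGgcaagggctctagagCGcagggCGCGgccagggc
Col25a1: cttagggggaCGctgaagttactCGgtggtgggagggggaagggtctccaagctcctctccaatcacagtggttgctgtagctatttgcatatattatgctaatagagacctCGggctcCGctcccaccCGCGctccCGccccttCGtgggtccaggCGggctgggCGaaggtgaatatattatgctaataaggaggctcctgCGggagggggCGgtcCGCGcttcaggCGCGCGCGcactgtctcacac

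The windows of Col5a1 and Col8a2 hold 28 and 24 CG, and 9.57% and 15.5% of the 16457 genes with a promoter entry hold at least as many. Col25a1 holds 18 (29.7% of genes hold at least as many), Col5a3 17 (32.4%) and Col1a2 11 (49.2%), beside a median of 10 over all entries. The Col3a1 window holds no CG, as does that of Col28a1, and neither start lay under a region in any library. The starts of the other 5 printed genes lay under a region in all 10 libraries. In a longer window that also runs past the start, Col9a1 likewise held no CG, and its start lay under no region. The number of CG did not sort all starts. In that longer window Col6a6 held 14, and its start lay under no region. Col24a1 held 6, and its start lay under a region in all 10 libraries. Promoter entries existed for 33 of the 42 genes, or 78.6%, which is under the 80% set for a check over the family, so CG content was not compared across it. The genes without an entry were Col1a1, Col2a1, Col4a3, Col5a2, Col9a3, Col12a1, Col14a1, Col22a1 and Col26a1.

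The libraries held 12.6 to 20.9 megatags, and 41.3% to 64.1% of tags fell inside called regions, with 95% Wilson intervals of at most 0.0267 percentage points to either side that cover counting error only. WT M2 replicate 1 stood apart: it had the most tags, the lowest share in regions, and 179 Mb of autosomal cover against 213 to 250 Mb in the other stimulated libraries. The M0 libraries covered 156 and 176 Mb and had estimated fragments of 352 and 372 bp against 178 to 190 bp. M0 was therefore not tested against M1 or M2, but its KO and WT libraries enter the genotype test. Eif2ak3 (chromosome 6, 70844484 to 70905241) had 0 to 2.08% cover in the 10 libraries, a value that says nothing of the deletion, and the genotype of each library is as labelled. Of 14 macrophage markers 9 had no region in any library, the growth factor receptor Csf1r and the lineage factor Spi1 among them, and 0 or 1 were covered per library. Of 13 fibroblast markers 3 to 5 were covered per library, with Thy1, Twist1 and Tcf21 in all 10, and 3 had no region in any library. Of 10 endothelial and epithelial markers 0 to 5 were covered per library. The summed cover of the macrophage markers ran from 30.2 to 85.9 percentage points, of the fibroblast markers from 415 to 517 and of the endothelial and epithelial markers from 203 to 391, and the part of other cells in any result was not tested.

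**Figure D1:**
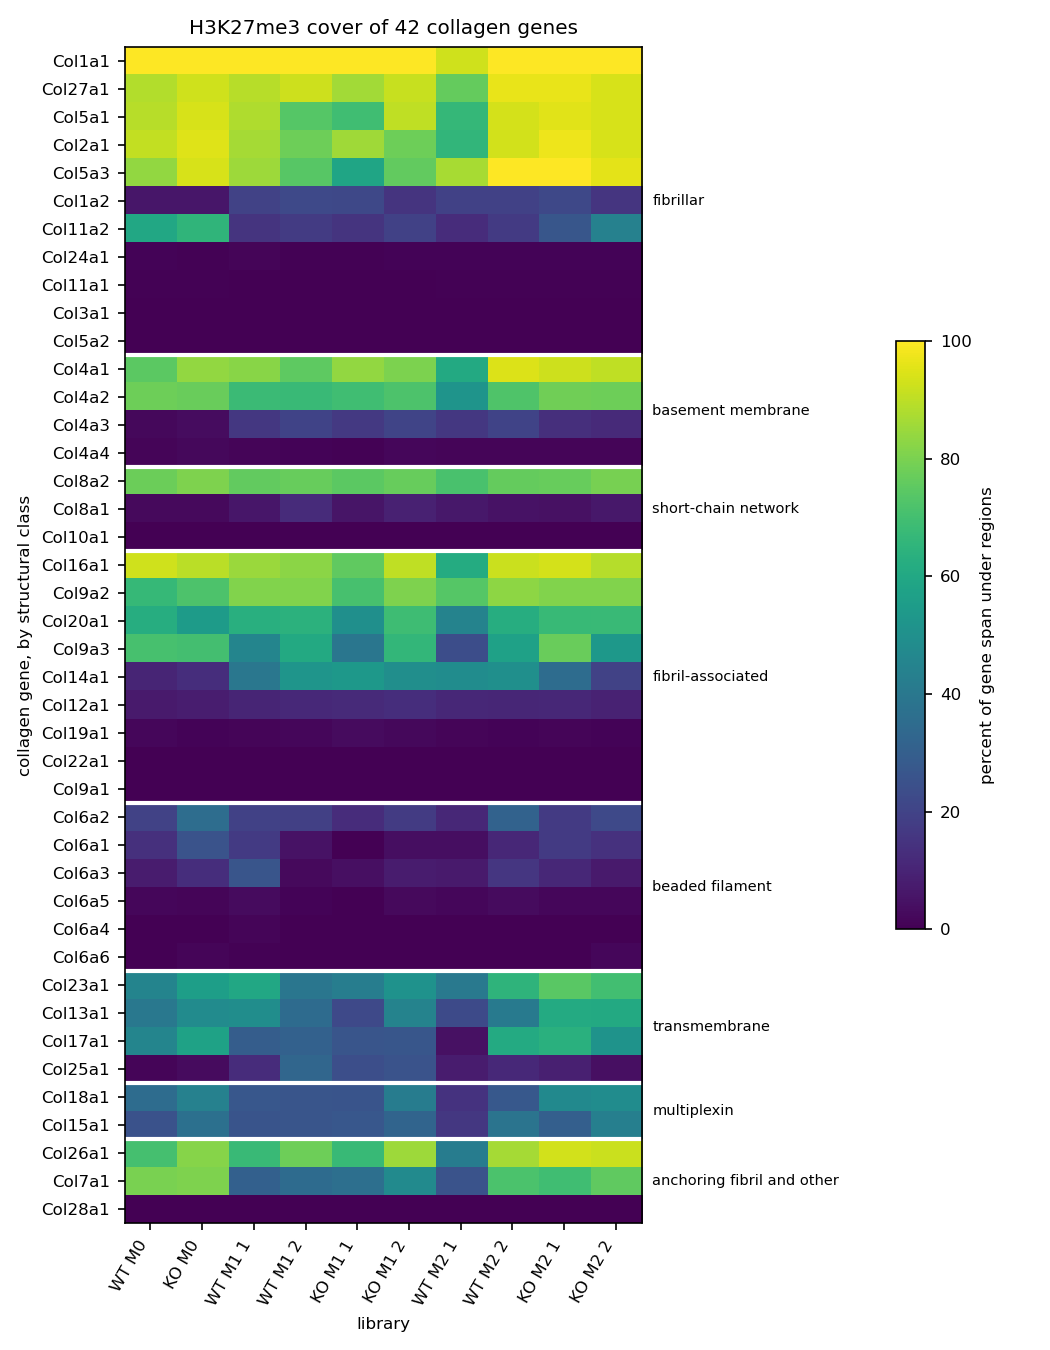
Cover of each of the 42 collagen genes (rows, grouped by structural class) in each of the 10 libraries (columns), coloured from 0 to 100% of the gene span. The rows of Col1a1, Col27a1, Col5a1, Col2a1, Col5a3, Col4a1, Col4a2, Col8a2, Col16a1 and Col9a2 are at 50% or more in every library, and the column of WT M2 replicate 1 is lower than its neighbours in many of them.

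Fibrillar collagens ranged from Col1a1, covered nearly whole, to genes with no region, as the map of genes by library shows. Of 11, 5 were covered in all 10 libraries, 1 (Col11a2) in some, 3 had less and 2 had no region. Col1a1, which encodes the main chain of type I collagen in bone, skin and tendon (chromosome 11, 94936224 to 94953042), was covered over 100% of its span in 9 libraries and over 92.8% in WT M2 replicate 1. The longest region over it had a median length of 153 kb. Col1a2 encodes the partner chain of the same fibril (chromosome 6, 4505618 to 4541543). Its cover was 6.04% in WT M0 and 6.01% in KO M0, 19.7% and 22.1% in WT M1, 21.8% and 14.9% in KO M1, 19.4% and 19.3% in WT M2, and 21.5% and 15.3% in KO M2. In each of the 10 libraries Col1a1 was therefore covered and Col1a2 was not. At the start of Col1a2 a region reached a median of 2.63 kb upstream and 1.27 kb downstream, and the gene body alone had a median cover of 5.88%. Past the gene's end, mean cover of single bins reached 86.9%.

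Col2a1, the type II collagen of cartilage (chromosome 15, 97975602 to 98004724), was covered over 90.7% in WT M0 and 95.02% in KO M0, 86.7% and 78.0% in WT M1, 85.8% and 77.9% in KO M1, 65.7% and 93.2% in WT M2, and 97.4% and 94.1% in KO M2. Its lowest value was that of WT M2 replicate 1. The type V chains differed from each other. Col5a1, whose chain starts and limits the width of type I fibrils (chromosome 2, 27886381 to 28039510), had cover from 66.5% to 95.7% with a median of 89.7%, and Col5a3 (chromosome 9, 20770050 to 20815117) from 58.7% to 100%. Col5a2 (chromosome 1, 45374331 to 45503282) had no region in any library. Its neighbour Col3a1, the type III collagen of vessels and wounds (chromosome 1, 45311538 to 45349706), lies 24.6 kb away and likewise was at 0% in each of the 10 libraries. Col27a1, a collagen of developing cartilage, had cover from 76.2% to 96.7%. Col24a1 and Col11a1, the latter a chain of cartilage fibrils, did not exceed 1.40% and 0.655%.

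In the basement membrane class the pair Col4a1 and Col4a2 was covered in all libraries and the pair Col4a3 and Col4a4 in none. Col4a1 (chromosome 8, 11198423 to 11312889) was covered over 74.8% in WT M0 and 83.9% in KO M0, 82.2% and 75.3% in WT M1, 83.9% and 80.2% in KO M1, 60.8% and 94.9% in WT M2, and 92.2% and 90.4% in KO M2. Col4a2 (chromosome 8, 11312805 to 11449287) was covered over 78.0% and 77.02% in WT and KO M0, 68.0% and 67.6% in WT M1, 69.2% and 71.9% in KO M1, 51.9% and 72.6% in WT M2, and 78.3% and 77.9% in KO M2. These chains assemble into the common network of vessel and epithelial basement membranes, and their genes are transcribed away from each other from starts 21 bp apart. One region lay over both starts in every library, so their values are not independent.

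Col4a3 (chromosome 1, 82586921 to 82722059) and Col4a4 (chromosome 1, 82448419 to 82587034) encode chains of the kidney filter. They also overlap, on the side of Col4a4 that holds its start, so their values are not independent. Col4a3 had 2.14% in WT M0 and 3.21% in KO M0, 16.3% and 20.3% in WT M1, 16.6% and 20.7% in KO M1, 16.0% and 20.2% in WT M2, and 13.5% and 11.9% in KO M2. Col4a4 had 1.42% in WT M0 and 2.07% in KO M0, 1.42% and 0.978% in WT M1, 0.673% and 1.63% in KO M1, 1.38% and 1.44% in WT M2, and 1.46% and 1.20% in KO M2. Each of the 8 stimulated libraries had more cover at Col4a3 than either M0 library, while the Col4a4 values of the states overlapped. A region lay at the Col4a4 start in 9 libraries.

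Among the fibril-associated collagens, which bind to fibril surfaces, Col16a1 and Col9a2 were covered in all 10 libraries, Col20a1 in 8, Col9a3 in 7 and Col14a1 in 2. Col12a1 and Col19a1 stayed at or under 12.9% and 2.84%, and Col9a1 and Col22a1 had no region. The chains of type IX collagen, a coat of cartilage fibrils, ran from 0% at Col9a1 to a median of 59.0% at Col9a3 and 80.8% at Col9a2. None of the 6 beaded filament genes, the type VI chains that surround cells in muscle and other tissues, was covered in any library. The highest median there was 19.1%, at Col6a2, and Col6a4 had a region in 1 library and Col6a6 in 3. In the short-chain class Col8a2 (71.3% to 80.6%) stood beside Col8a1 (2.36% to 12.4%), although both encode chains of the type VIII network under corneal and vascular endothelium, and Col10a1, the collagen of hypertrophic cartilage, had no region.

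Among the 4 transmembrane collagens Col23a1 was covered in 6, Col17a1, a hemidesmosome protein of skin, in 4, Col13a1 in 2 and Col25a1 in 0. Both multiplexins, Col15a1 (16.1% to 43.2%) and Col18a1 (14.6% to 48.6%), which link basement membranes to the tissue beside them, had part of the gene covered in each library. Of the remaining 3 genes, Col26a1 was covered in 9 libraries and Col7a1, the anchoring fibril of skin, in 5, and Col28a1 had no region.

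Where along the gene the mark lay was read for the 33 genes with a known start and direction, of which 29 had a region in some library. The start lay under a region in all 10 libraries at 20 genes and in 1 to 9 libraries at 5. Regions missed the start in every library at 4 genes, Col20a1, Col6a1, Col6a4 and Col6a6. Mean cover was higher between start and midpoint than between midpoint and end at 23 genes and lower at 5. No share over all genes stands beside these counts, so whether other genes share the pattern was not tested.

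**Figure D2:**
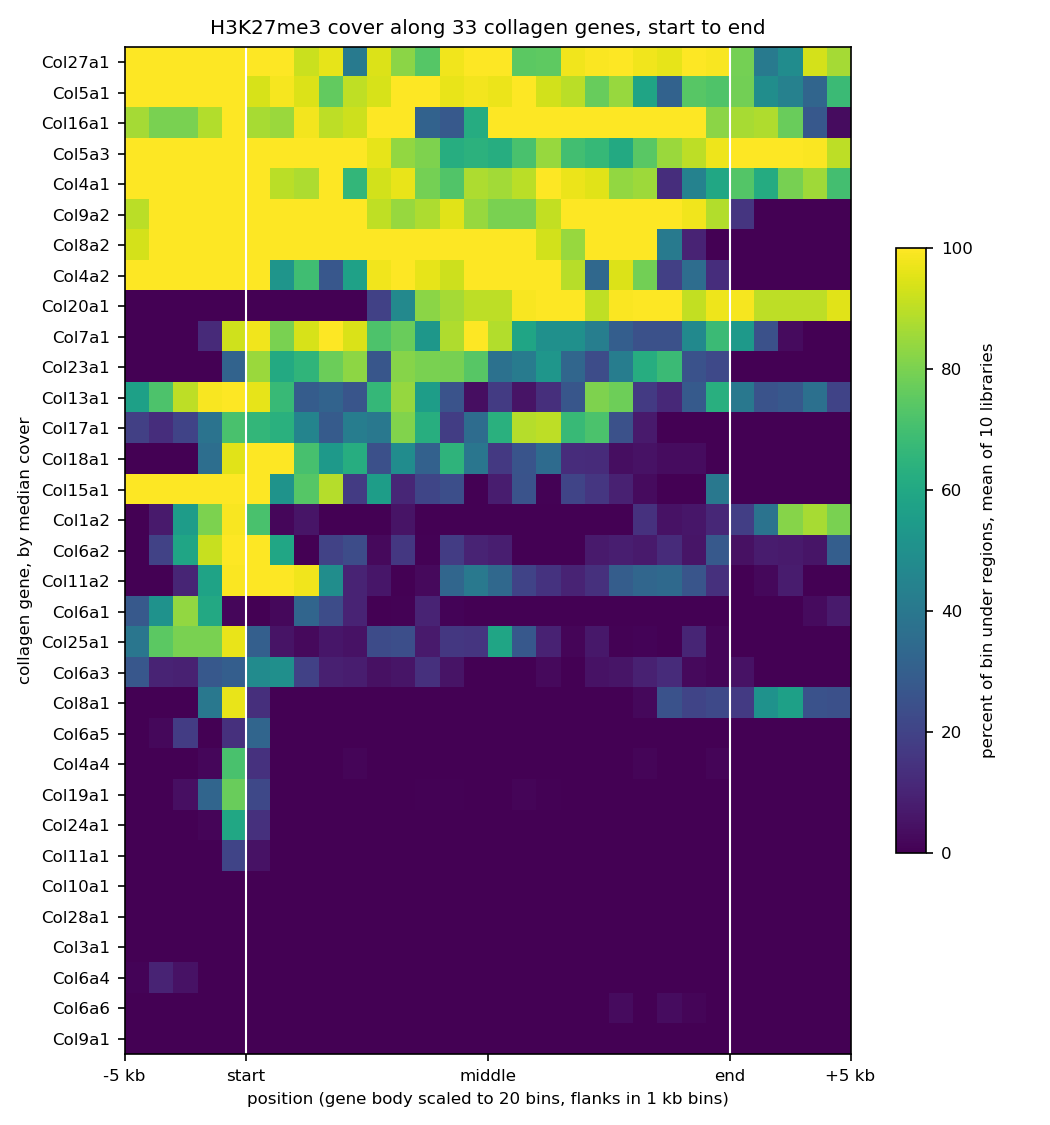
Mean cover over the 10 libraries along 33 collagen genes (rows, by median cover) from 5 kb before the start to 5 kb after the end, with flanks in 1 kb bins, the body scaled to equal bins and white lines at start and end. Col18a1 and Col15a1 are bright at the start and dark towards the end, Col20a1 is the reverse, and Col24a1, Col19a1 and Col4a4 show a spot at the start with little elsewhere.

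The profile along the genes shows 3 shapes. Broad domains that ran beyond the gene covered Col5a1, where the region at the start reached a median of 73.6 kb upstream and 23.8 kb into the gene, and Col16a1, with 95.3 kb upstream and 18.5 kb downstream. Front-loaded genes were Col18a1, with 59.5% mean cover up to the midpoint and 11.9% after it, and Col15a1, with 44.3% and 12.3%. Short regions at the start marked long genes with little other cover. At Col24a1 (a span of 270 kb) the region reached 0.542 kb upstream and 1.78 kb downstream in the median library, and at Col19a1 (340 kb) 1.49 and 2.88 kb. Col20a1 had the reverse shape, with 32.6% up to the midpoint and 96.7% after it.

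The first comparison asked whether collagen genes differ in H3K27me3 between M1 and M2 macrophages. Col5a3 had more cover in M2, Col25a1 more in M1, and Col11a1 a short region at its start in M2 that no M1 library had. These were the 3 of 36 tested collagen genes whose 4 M1 and 4 M2 libraries did not overlap, beside 3.28% of the 11044 genes tested, and none passed a threshold of 0.05 after adjustment over all of them. A gene was tested where any stimulated library had cover, so the 6 collagen genes with no region were not. For genes higher in M2 the background was 1.1% and for genes higher in M1 2.17%.

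Col5a3 encodes a minor chain of type V fibrils. Its cover was 83.9% in WT M0 and 93.8% in KO M0, 85.4% and 74.2% in WT M1, 58.7% and 76.0% in KO M1, 87.1% and 100% in WT M2, and 100% and 95.9% in KO M2. The highest M1 library lay just below the lowest M2 library, which was WT M2 replicate 1. The M1 mean was 73.6% ± 11.1 and the M2 mean 95.7% ± 6.09 (SD, n = 4 each), a difference of 22.2 percentage points with an exact two-sided permutation p of 0.0286, the smallest this design gives, and an adjusted p of 0.8291. The region over the start was 130.4 and 117 kb long in the 2 libraries with 1 region across the whole gene. With the upper 50% of regions by score the difference was 27.4 points at an exact permutation p of 0.314. Without KO M1 replicate 1 it was 17.2, and without any 1 M2 library 20.7 to 25.04, each at an exact permutation p of 0.0571.

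Col25a1 encodes a transmembrane collagen found in amyloid plaques (chromosome 3, 130180358 to 130599884). Its cover was 1.49% in WT M0 and 3.0% in KO M0, 12.6% and 33.05% in WT M1, 24.1% and 25.7% in KO M1, 7.75% and 11.4% in WT M2, and 8.68% and 4.21% in KO M2. All M1 libraries were above all M2 libraries, by little at the nearest pair, and both M0 libraries were below all of them. The M1 mean was 23.9% ± 8.45 and the M2 mean 8.01% ± 2.97 (SD, n = 4 each), a difference of -15.9 points (exact two-sided permutation p = 0.0286, adjusted p = 0.8291). M1 libraries held 23 to 35 separate regions in this gene and M2 libraries 6 to 19. Without any 1 M2 library the exact permutation p was 0.0571, at -14.6 to -17.0 points. With the upper 50% of regions by score the difference was -10.2 points, and with equal covered length by tags per base -7.37, both at an exact permutation p of 0.0286.

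Col11a1 encodes a chain of cartilage fibrils (chromosome 3, 114030479 to 114220756). A single region of 1 to 1.31 kb lay over its start in both M0 and all 4 M2 libraries and in no M1 library, which is near the 1000 bp window of the authors' caller. Cover was therefore 0.655% and 0.499% in WT and KO M0, 0% in the 4 M1 libraries, 0.499% in both WT M2 libraries, and 0.625% and 0.499% in KO M2. The difference of 0.531 points had an exact two-sided permutation p of 0.0286 and an adjusted p of 0.8291, and with equal covered length by tags per base it was 0.406 at an exact permutation p of 0.143. In limma, which shares its estimate of the spread across genes, the same difference had a standard error of 0.446 and an adjusted p of 0.782, while Col5a3 had a standard error of 6.18 and an adjusted p of 0.611 and Col25a1 4.54 and 0.613. By limma 1 gene of all those tested, or 0.00936%, had an adjusted p under 0.05, higher in M2, and it was no collagen gene.

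Col7a1 had the widest gap between the state means but overlapping libraries. Its cover (chromosome 9, 108953586 to 108984875) was 79.9% in WT M0 and 80.8% in KO M0, 30.8% and 34.9% in WT M1, 36.6% and 47.9% in KO M1, 25.6% and 71.9% in WT M2, and 69.4% and 75.6% in KO M2. All M2 libraries apart from WT M2 replicate 1 exceeded all M1 libraries, and the difference of 23.1 points had an exact permutation p of 0.143. Without that library it was 34.7 points at an exact permutation p of 0.0286, and the region at the start ran 22.7 to 25.1 kb into the gene in those 3 libraries against 1.33 to 11.1 kb in M1. The sign was the opposite with the upper 50% of regions by score (-6.42 points, exact permutation p = 0.6) and with equal covered length by score (-11.9, exact permutation p = 0.457). With equal covered length by tags per base the sign was kept, at 41.4 points (exact permutation p = 0.0571). Col7a1 was chosen after its values were seen.

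**Figure D3:**
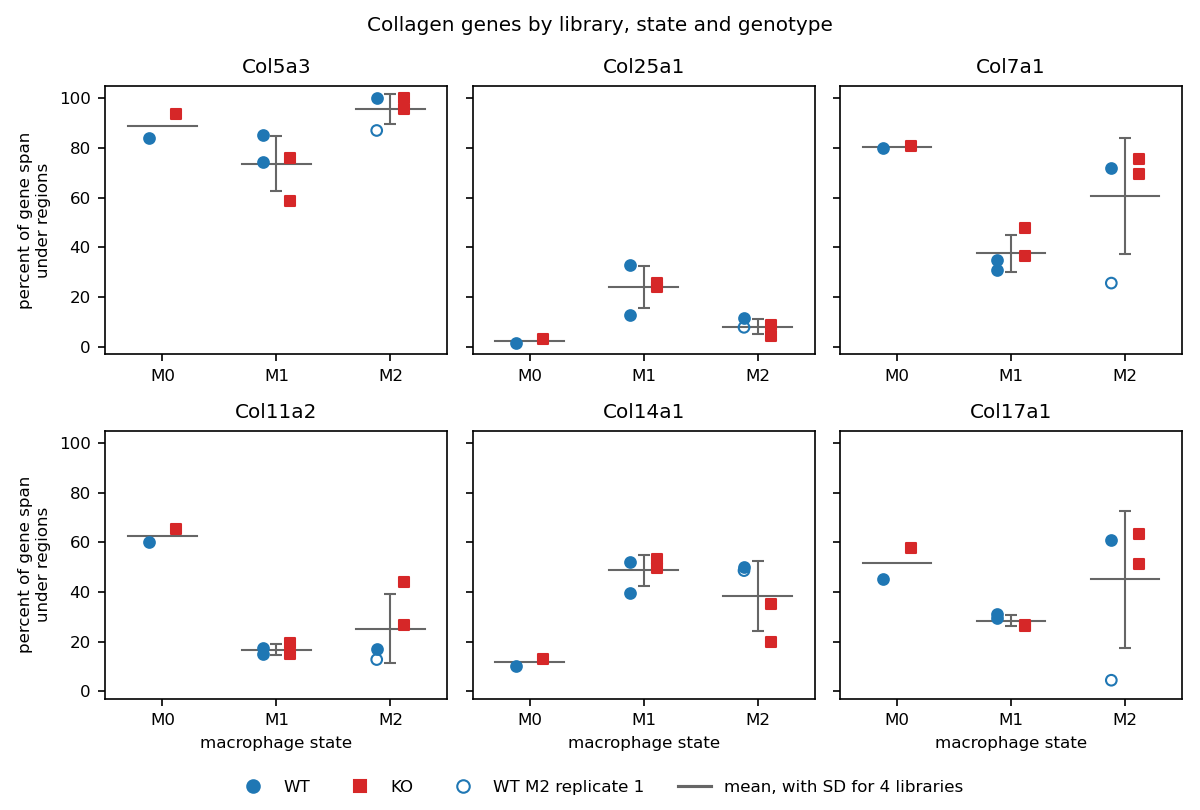
Cover (percent of the gene span) of 6 collagen genes by state, 1 point per library, circles for WT and squares for KO, with the mean and, for the 4 libraries of M1 and of M2, the SD. WT M2 replicate 1, the open circle, is the lowest M2 library at Col5a3, Col7a1, Col11a2 and Col17a1, and M0 libraries are above all others at Col7a1 and Col11a2 and below them at Col25a1 and Col14a1.

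The count of separated genes rests on WT M2 replicate 1. Without it, 13 collagen genes had M1 and M2 libraries that did not overlap, 11 of them higher in M2, where 16.8% of all genes tested were separated and 13.1% higher in M2. The 11 were Col2a1, Col5a1, Col5a3, Col11a1 and Col27a1 of the fibrillar class, Col4a1 and Col4a2, the transmembrane Col17a1 and Col23a1, Col7a1 and Col26a1, and Col19a1 and Col25a1 were higher in M1, a direction that 3.63% of all genes took. Without WT M1 replicate 1 the count was 6, beside 9.08% of all genes, without WT M2 replicate 2 it was 4, with Col4a3 added, beside 6.01%, and without both WT replicate 1 libraries 17, of which 14 were higher and 3 lower in M2, beside 24.6% of all genes, with 16.5% higher and 8.1% lower. Over the 36 genes with all libraries the median difference was 0.566 points (24 positive, 12 negative), and over all genes tested it was 0 (5279 positive, 5348 negative). Without WT M2 replicate 1 it was 5.00 points over the collagen genes and 0.489 over all genes. The number of collagen genes covered was 13, 14, 12 and 14 in the M1 libraries and 10, 16, 17 and 17 in the M2 libraries.

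**Figure D4:**
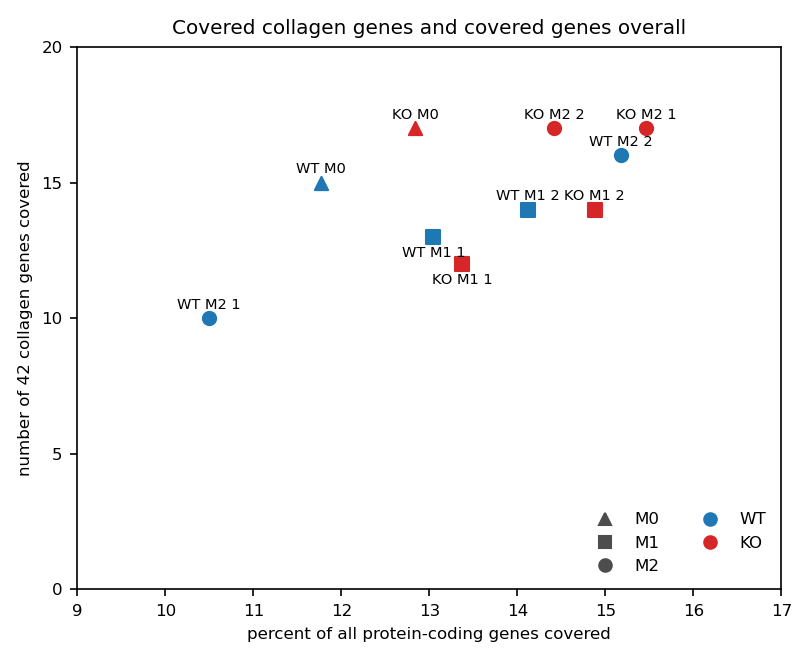
Number of collagen genes with at least 50% cover against the percent of all 20665 protein-coding genes with at least 50% cover, 1 point per library, coloured by genotype and shaped by state. WT M2 replicate 1 is lowest on both axes (10 genes and 10.5%), the other M2 libraries sit at 16 or 17 genes, the M1 libraries at 12 to 14 and the M0 libraries at 15 and 17.

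M0 against the stimulated states is described and not tested, given the M0 fragment lengths and covered length. The plot of covered counts shows M0 with 15 and 17 collagen genes covered although 11.8% and 12.8% of all genes were covered there, against 13.0% to 15.5% in the stimulated libraries other than WT M2 replicate 1. Both M0 libraries lay outside the range of all 8 stimulated libraries at 8 collagen genes, beside 27.4% of all genes tested. Col7a1 and Col11a2 were higher in M0. Col1a2, Col4a3, Col8a1, Col12a1, Col14a1 and Col25a1 were lower, with 7.25% and 8.01% against 9.45% to 12.9% at Col12a1, a fibril-associated collagen of tendon, and 2.36% and 2.70% against 4.63% to 12.4% at Col8a1. For genes higher in M0 the background was 9.74% and for genes lower in M0 17.7%.

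The second comparison asked whether loss of PERK changed H3K27me3 at collagen genes. In none of the 36 genes with cover did KO and WT libraries separate the same way in M0, M1 and M2, beside 4.39% of the 11579 genes tested, and none had an exact permutation p under 0.05, before or after adjustment. In limma 0 genes had an adjusted p under 0.05, and of the collagen genes Col18a1 had an unadjusted p of 0.0189 (adjusted p 0.653). The count became 4 without KO M1 replicate 1 (Col5a1, Col11a2, Col18a1 and Col26a1, all higher in KO), where 10.6% of all genes were separated. It was 2 (Col7a1 and Col15a1) without WT M2 replicate 2, beside 8.33% of all genes, or without KO M2 replicate 1, beside 5.52%. It was 1 without WT M1 replicate 1 (Col23a1), beside 7.34%, or WT M1 replicate 2 (Col11a2), beside 8.1%. Within single states more genes separated, and so did more of the genome. In M1, 9 of 35 collagen genes had KO and WT pairs that did not overlap, 5 higher and 4 lower in KO, beside 24.4% of genes tested, with 16.2% higher and 8.2% lower. In M2 it was 13 of 35, 11 of them higher in KO, beside 39.3% in all, with 28.6% higher and 10.7% lower in KO. With 2 libraries against 2 an exact permutation test cannot give a p under 0.333.

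Of the M2 genes, those higher in KO were Col2a1, Col5a1 and Col11a2 (fibrillar), Col4a2, Col8a2, Col20a1, Col6a1, Col13a1, Col23a1, Col18a1 and Col26a1, and those lower were Col14a1 and Col4a3. WT M2 replicate 1 is 1 of the WT pair and was the lowest M2 library at each of the 11. At Col18a1, a source of the fragment endostatin, KO M2 had 47.5% and 48.6% and WT M2 14.6% and 27.7%. At Col13a1 KO M2 had 61.0% and 60.7% and WT M2 22.6% and 40.7%. Over all states the median KO minus WT difference was 1.66 points over the collagen genes (25 positive, 11 negative) and 0.762 over all genes (7766 positive, 3485 negative).

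The authors' deposited tables of differential regions in M2 touch 4 collagen genes, all at false discovery rates above 0.14, and those for M1 touch none. KO enriched regions lay at Col17a1, Col19a1 and Col11a2, or 7.14% of the collagen genes beside 3.59% of all genes and 10.4% of genes at least as long as the median collagen span. The 1 WT enriched region lay at Col14a1, which is 2.38% of the collagen genes beside 0.30% of all and 1.52% of those long genes. The regions were chosen by the authors for the M2 difference, so cover in the M2 libraries at them is no separate evidence.

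In the authors' deposited table the region at Col17a1 (chromosome 19, 47663597 to 47663997), 28.2 kb inside the gene, has a p-value of 0.000903, a false discovery rate of 0.147 and a log2 fold of 1.65. Cover of Col17a1 was 45.4% in WT M0 and 57.7% in KO M0, 29.4% and 30.9% in WT M1, 26.4% and 26.6% in KO M1, 4.39% and 61.0% in WT M2, and 63.3% and 51.3% in KO M2. The KO and WT libraries overlapped in M2, and the region itself was under a called region in every library except WT M2 replicate 1. The KO minus WT difference was 10.9 points over all states (exact permutation p = 0.611), and without that library -0.0752 (exact permutation p = 0.972). Without WT M2 replicate 2 it was 18.8 points (exact permutation p = 0.167), with equal covered length by score 19.1 (exact permutation p = 0.0556), and with the upper 50% of regions by score 25.5 (exact permutation p = 0.0278).

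The region at Col11a2, a chain of cartilage fibrils (chromosome 17, 34051553 to 34051953), lies 12.6 kb from the start. The authors' deposited table gives it a false discovery rate of 0.203 with a log2 fold of 1.66. Col11a2 cover was 60.1% in WT M0 and 65.3% in KO M0, 14.9% and 17.5% in WT M1, 15.0% and 19.3% in KO M1, 12.7% and 16.8% in WT M2, and 26.8% and 44.1% in KO M2. Both M0 libraries were far above the rest, and in M2 both KO libraries were above both WT libraries. The region was under called regions in both M0 and both KO M2 libraries and in none of the other 6. Over all states the difference was 9.71 points (exact permutation p = 0.0556, limma standard error 4.71, adjusted p 0.66). Without KO M2 replicate 2 it was 5.60 points (exact permutation p = 0.0833). With the upper 50% of regions by score it was -4.18 points (exact permutation p = 0.25), and with equal covered length by tags per base 2.48 (exact permutation p = 0.194).

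The region at Col19a1 (chromosome 1, 24586558 to 24586958) lies 0.679 kb inside the gene. The authors' deposited table gives it a false discovery rate of 0.152 with a log2 fold of 1.55. It was under called regions in all 10 libraries. Cover of Col19a1, a fibril-associated collagen of muscle and synapses, was 1.61% in WT M0 and 1.03% in KO M0, 1.28% and 1.75% in WT M1, 2.84% and 2.09% in KO M1, 1.43% and 1.07% in WT M2, and 1.22% and 1.13% in KO M2. Genotypes overlapped in M2 and the KO libraries were higher in M1. The difference over all states was 0.232 points (exact permutation p = 0.472), without KO M1 replicate 1 it was 0.0275 (exact permutation p = 0.889), and with the upper 50% of regions by score it was -0.862 (exact permutation p = 0.111).

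At Col14a1, which binds tendon and skin fibrils, the authors' deposited table gives a WT enriched region (chromosome 15, 55413736 to 55414136) with a p-value of 0.00203, a false discovery rate of 0.159 and a log2 fold of -2.15. Col14a1 cover was 10.3% in WT M0 and 13.1% in KO M0, 39.7% and 52.1% in WT M1, 53.4% and 49.5% in KO M1, 48.6% and 49.9% in WT M2, and 35.3% and 19.6% in KO M2. In M2 both WT libraries were above both KO libraries, in M1 the genotypes overlapped, and both M0 libraries were the lowest. The region was under called regions in both WT libraries of M1 and of M2 and in KO M1 replicate 1. The difference over all states was -5.94 points (exact permutation p = 0.417). It was -1.58 without KO M2 replicate 2 (exact permutation p = 0.694) and -9.28 without WT M1 replicate 1 (exact permutation p = 0.222).

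Genes that make, bind and degrade collagen were read the same way. Of all genes 7.92% were covered in all 10 libraries and 44.0% had no region. Of 28 genes for collagen modification and processing 6 were covered in all 10 libraries: the prolyl hydroxylase P4ha3, the collagen chaperone Serpinh1, the procollagen proteases Bmp1, Tll2 and Adamts14, and the crosslinking enzyme Loxl1. Serpinh1 had 87.3% to 100% cover and Loxl1 93.5% to 100%. Of 38 other matrix genes 9 were covered in all 10 libraries, Eln and Tnxb among them. Of 12 collagen receptors these were Itga11 and Ddr1, while the integrin chain Itgb1, the uptake receptor Mrc1 and the inhibitory receptor Lair1 had no region in any library. Of 14 collagen degrading proteases Mmp9 was covered in all 10 libraries, at 100% in each, and 8 had no region in any library. The share covered in all 10 was 21.4% of processing genes, 23.7% of other matrix genes, 16.7% of receptors and 7.14% of proteases. These lists were not matched for gene span.

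Between M1 and M2, 3 of the 8 receptor genes with cover had libraries that did not overlap, all higher in M1, beside the background of 2.17%. Gp6, the platelet collagen receptor, had 18.0% and 17.9% in WT and KO M0, 77.8% and 84.1% in WT M1, 89.4% and 83.1% in KO M1, 52.1% and 69.9% in WT M2, and 57.2% and 28.1% in KO M2. Itga2 and Ddr2, which bind fibrillar collagen, did so at low levels, with at most 8.14% and 7.88%. The prolyl hydroxylase P3h2 was higher in M1 and the cartilage protein Matn3 higher in M2. All 5 had an exact permutation p of 0.0286 and an adjusted p of 0.8291.

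Between genotypes 2 of the 28 processing genes separated the same way in every state, both higher in KO, beside the background of 3.78%. Of the 28, 5 had no region in any library and were not tested. P4ha2, a subunit of the prolyl hydroxylase that stabilises the helix, had 52.5% in WT M0 and 83.8% in KO M0, 43.3% and 72.4% in WT M1, 92.9% and 81.7% in KO M1, 20.6% and 54.9% in WT M2, and 93.4% and 86.2% in KO M2. P3h3, a prolyl hydroxylase relative that acts with the lysyl hydroxylase, had 46.7% and 51.9%, 26.1% and 26.3%, 37.5% and 37.9%, 11.1% and 24.1%, and 41.7% and 33.3% in the same order. Of 37 other matrix genes with cover 5 were higher in KO in every state, namely Fmod, Nid2, Bcan, Comp and Matn1. All 7 had an exact permutation p of 0.0278, the smallest this design gives, and an adjusted p of 0.633. None of these lists had a gene higher in WT in every state, where the background was 0.605%.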

How the data were processed

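Chromatin was precipitated with an H3K27me3 antibody and sequenced, per the labels' protocols, although the sample labels name total RNA as the molecule. The submitters' processing notes name Bowtie2 2.4.2, SAMtools 1.10, deepTools 3.5.1, HOMER 4.8, DiffBind 2.0.2 and mm10. The authors called regions in each library without input by HOMER findPeaks in region mode, per the file headers, which give windows of 1000 bp joined within 2500 bp and a false discovery rate threshold of 0.001. Each deposited region carries a signal (tags scaled to a library of 10 megatags), a score and a ratio (clonal fold change), per the file headers. Signal and score only ranked regions in alternatives. The authors' deposited tables of differential regions give concentrations and fold on a log2 scale with a p-value and false discovery rate. The libraries and model behind them were not given in the sources used here.

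Regions were merged per library, and the percent of each gene span (RefSeq positions on GRCm38.p6) under them was computed with Python 3.11.15, numpy 2.4.6 and pandas 2.3.3. M2 was compared with M1 by exact two-sided permutation (70 arrangements), and KO with WT within states (72 arrangements), over all genes with cover, with Benjamini-Hochberg adjustment. limma 3.58.1 in R 4.3.3 was an alternative. Steps were tested on simulated data. Collagen genes named with all values were those with separated M1 and M2 libraries, those separated by genotype in every state, those at the authors' regions, and Col1a1 to Col3a1 and Col4a1 to Col4a4. Col7a1 and the related genes Gp6, P4ha2 and P3h3 were given in full after their values were seen. The members, lists and tests were chosen with earlier results of these data known. Exons, introns and X-linked genes were left out of the tests.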

Additional observations from a re-analysis of the deposited data

Results flagged for a closer look

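Of 32 groups of 4 libraries checked for a library far from the other 3, 6 had one, where chance gives about 1 in 20. The groups share libraries and some genes were chosen by their values, so the flags are not independent. At Col1a1 and Col11a1 the other 3 values were equal, so any departure was flagged. WT M2 replicate 1 was the lowest M2 library in 5 of them. It had 92.8% cover at Col1a1 where the other 3 had 100%, 65.7% at Col2a1 against 93.2% to 97.4%, and 60.8% at Col4a1 against 90.4% to 94.9%. At Col7a1 it had 25.6% against 69.4% to 75.6%. It also had 10 collagen genes covered where the other M2 libraries had 16 or 17. At Col11a1 KO M2 replicate 1 had 0.625% cover and the other 3 M2 libraries 0.499%, which is a region of 1.25 kb in place of 1 kb.

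Col6a1, a chain of the type VI beaded filament, was flagged for opposite differences between genotypes. KO minus WT cover was -9.24 points in M1, where WT had 17.1% and 5.06% and KO 0% and 3.67%, and 8.08 points in M2, where WT had 3.67% and 11.3% and KO 17.02% and 14.1%. Every KO library was lower in M1 and higher in M2, and the difference between the states was not tested. Of all genes tested in M1, 16.2% were separated higher and 8.2% lower in KO. In M2 these shares were 28.6% and 10.7%. How many of all genes were opposite between M1 and M2 was not counted.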

How the results depend on the processing

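The number of collagen genes with separated M1 and M2 libraries, 3 in all, ran from 3 to 13 when 1 library was left out and was 17 without both WT replicate 1 libraries. It stayed within 1.5 times of 3 under the other alternatives. The number separated by genotype in every state, 0 in all, was 2 with the upper 50% of regions by score (Col17a1 and Col24a1), 1 with equal covered length by score and 2 with equal covered length by tags per base, an alternative added after the data were seen. It was 1 with M1 and M2 libraries only, 1 without both WT replicate 1 libraries, 1 gene (Col18a1) with an unadjusted limma p under 0.05, and 0 to 4 when 1 library was left out, 4 without KO M1 replicate 1. Apart from the settings with 1 library left out, no share over all genes was counted for these genotype counts. They are therefore not read as particular to collagen genes.

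Same-numbered libraries of the 2 genotypes did not deviate together: the correlation of their deviations over 20665 genes was -0.0201 in M1 and -0.162 in M2. Between M1 and M2 it was 0.20 for WT and 0.00139 for KO, so not every pair exceeded 0.1. With the replicate block the genotype count was 3 (Col7a1, Col11a2 and Col15a1) and the state count 4, with Col4a3 added, where the smallest p is 0.125. With crossed numbers in M2, added after the data were seen, the genotype count was 1. The share of all genes separated under the block or with crossed numbers was not counted, so these counts are not read as particular to collagen genes.

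Of 10 genes covered in all libraries, 0 were left with the upper 50% by score and with equal covered length by score, 6 with equal length by tags per base and 2 at 75% of the span, and 10 to 11 when 1 library was left out. The mean over libraries of the median cover, 22.2%, was 4.97%, 11.6% and 13.3% under the first 3 of these and 22.0% to 23.2% with 1 library left out. The mean number covered per library, 16 in M0, 13.25 in M1 and 15 in M2, was 7, 5 and 4.25 with the upper 50% by score and 10, 8 and 9.25 at 75%. It was 14 in M0, 7.25 in M1 and 7.5 in M2 with equal length by score, and 21, 20.5 and 19.25 at 25%. The equal length was the 156 Mb of WT M0, the lowest of all libraries. Signs turned at Col7a1 for M2 minus M1, -6.42 and -11.9 points with the upper 50% and with equal length by score. For KO minus WT they turned at Col11a2 (-4.18 and -3.67) and Col19a1 (-0.862 and -0.752) under the same settings, and at Col17a1, which ran from -0.0752 without WT M2 replicate 1 to 18.8 without WT M2 replicate 2 and was 25.5 with the upper 50% by score. At Col7a1 the sign was kept with equal length by tags per base (41.4 points). The cause of the changes above was not tested. Cover counts bases under called regions, so a difference in level inside a region is not seen, and without an input control or depth per gene no interval can be given for a single value.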

Other observations

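The type IV collagen genes on the X chromosome, Col4a5 and Col4a6, fall outside the autosomal rule and entered no comparison. They lie next to each other (Col4a6 at 141165403 to 141474095 and Col4a5 at 141475370 to 141689236 on chromosome X). Col4a6 had 83.9% cover in WT M1 replicate 1 and 98.2% in WT M2 replicate 1, and 1.49% to 24.8% in the other 8 libraries. Col4a5 had 40.4% and 67.3% in the same pair of libraries and 0.680% to 2.21% in the other 8.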
